A study of Mus musculus with 4 samples.

Results

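Wapal-binding sites that lay outside genes, over 20 kb and up to 100 kb from any transcription start site (TSS), were described here. A Wapal-binding site was a region of the FB Wapal list that shared no base with a region of the BirA list. A site belonged to this distal class when its centre lay in no annotated gene body and the nearest TSS of any transcript was over 20000 bp and at most 100000 bp away in mm9. The class held 1851 of 8323 sites (22.2%), which was 41.1% of the 4505 sites that lay outside genes and over 2 kb from a TSS. The remaining extragenic sites lay 2 to 20 kb from a TSS (2128 sites) or over 100 kb from one (526 sites), and these were the classes used for comparison.

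All cells were 129SVJ-derived mouse embryonic stem cells (ESCs) kept in standard culture with no further treatment, and they all expressed the biotin ligase BirA. FB Wapal cells carried, in addition, a Flag/Bio-tagged Wapal cDNA that BirA biotinylates, in 2 separately derived clones, so each FB Wapal library stands for 1 clone. BirA cells carried the ligase with no tagged protein and served as the negative control, and the input was sheared genomic DNA. In biotin-mediated ChIP-seq the tagged protein is recovered on streptavidin with its DNA. The deposited data were a joint list of both FB Wapal clones, with 8497 regions, and a BirA list with 266. Each region had a position and a MACS score, which is −10 times the log10 of the p-value with which MACS called it. The lists held no read counts and did not tell the clones apart, so no spread between replicates could be computed. Intervals given below are 95% intervals that cover counting error over regions, and regions of a list are not replicates of a condition.

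Wapal releases cohesin, the ring-shaped complex that holds sister chromatids together and that extrudes chromatin loops in interphase. Loop extrusion tends to stop where the zinc finger protein CTCF is bound, and CTCF recognises an asymmetric DNA motif, so a bound motif has a direction. Distal regions between genes hold enhancers, insulators and domain borders, and loops between them and promoters are a main way in which such elements are thought to reach their genes.

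The CTCF core motif, 12 bases long, was the sequence feature most members of the class shared, and the strongest members show what it looks like in place. The sequences below are from mm9, read 5′ to 3′ on the strand of the motif, with 9 bases on either side of the match in lower case and the match itself in capitals. They are 8 of the 10 highest-scoring members, in order of score, and each is named by a flanking or nearest gene. The members near Stard6 (score 420, 1 mismatch) and Pik3c3 (score 385, exact), which belong among the 10, are described by their values alone.
Ppp6c side, chr2:39228828-39228857, reverse strand, score 685, 1 mismatch: ctcttgcttCCACAAGGTGGCacccctgat
Pgm1 side, chr5:64461430-64461459, forward strand, score 502, exact: cacgatctgCCACCAGGTGGCaaaagccag
Hepacam2 side, chr6:3397556-3397585, reverse strand, score 428, 1 mismatch: actcatgctCCAGTAGATGGTgacatacac
Ell2 to Glrx, chr13:75935479-75935508, reverse strand, score 408, exact: ccacactatCCAGCAGATGGCgctgcacgc
Pdcd1 side, chr1:95975879-95975908, reverse strand, score 401, 1 mismatch: cgtgttctgCCACTAGGTGGGagcctctac
Gm525 to Nog, chr11:89026754-89026783, forward strand, score 388, exact: tcatgctgaCCACCAGGTGGCgctgttggc
B3gat2 side, chr1:23712546-23712575, forward strand, score 359, 1 mismatch: ctctcctgtCCACTAGATGGTgctgtaaac
Glrx3 side, chr7:144670147-144670176, forward strand, score 357, 1 mismatch: gaactttggGCACCAGGGGGCgcgcgagga
Matches were searched inside the called sites alone, and 3 of these 8 were exact.

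The class was present on the 19 autosomes and X. With annotated genes of all types counted, its density was close to that of the genome as a whole. Extragenic sequence 20 to 100 kb from a TSS made up 571 Mb, or 22.3% of the sequenced bases of the 19 autosomes and X, and held 3.24 sites per Mb (95% Poisson interval 3.10 to 3.39). All other sequence held 3.26 sites per Mb (3.18 to 3.34). Density fell with distance from TSSs. Extragenic sequence 2 to 20 kb away held 5.19 sites per Mb (4.97 to 5.42), and sequence over 100 kb away held 1.14 (1.05 to 1.24). The same gradient ran inside the class. There were 934 members 20 to 40 kb from a TSS (4.02 per Mb), 463 at 40 to 60 kb (3.12 per Mb), 280 at 60 to 80 kb (2.60 per Mb) and 174 at 80 to 100 kb (2.11 per Mb). Exact motifs were themselves rarer farther out: tiles of 794 bp free of sites held one in 0.396% of cases at 2 to 20 kb, in 0.248% at 20 to 100 kb and in 0.139% over 100 kb.

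**Figure D1:**
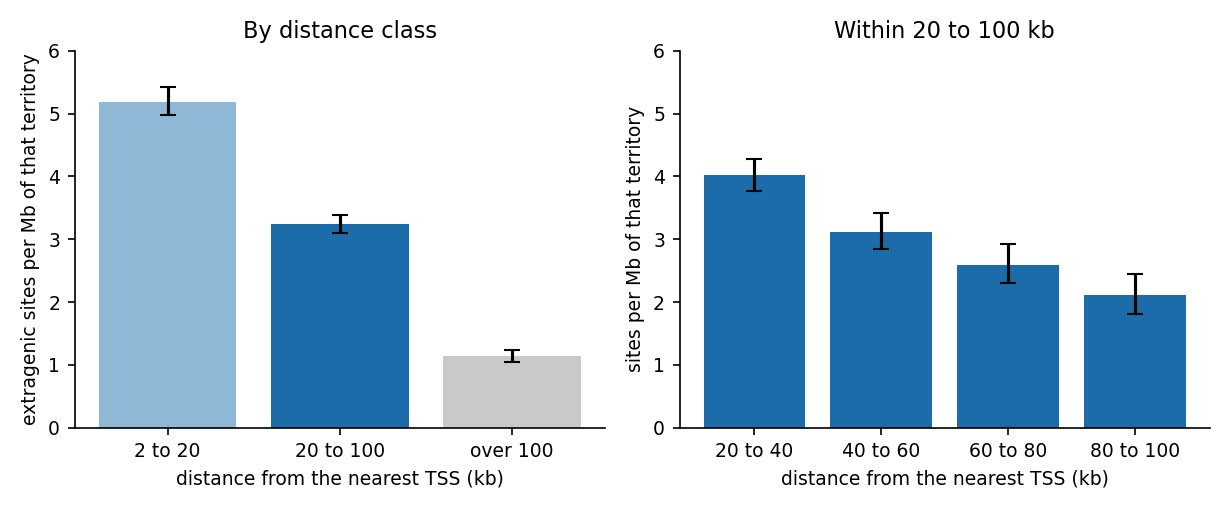
Sites per Mb of extragenic sequence by distance from the nearest TSS in kb. Left, the 3 distance classes; right, the 20 to 100 kb class in steps of 20 kb. Bars are densities and whiskers 95% Poisson intervals, which cover counting error only. Density fell from 5.19 to 1.14 sites per Mb across the classes and from 4.02 to 2.11 within the 20 to 100 kb class.

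The scores of members ran from 50.1 to 685 with a median of 84.1 (quartiles 64.0 and 120). The median was 84.6 at 2 to 20 kb and 81.0 over 100 kb. A score of at least 100 was reached by 680 members (36.7%), against 34.6% of all 8323 sites. The share of members over this limit was 2.78 points above that of all other sites (95% Newcombe interval 0.316 to 5.27), while the differences from the 2 to 20 kb class (-1.09 points, -4.10 to 1.92) and from the class over 100 kb away (2.14 points, -2.56 to 6.66) had intervals that included 0. Within the class, score was close to unrelated to distance from the TSS (Spearman rho -0.012 over 1851 sites) and to GC content (rho 0.035), and weakly related to width (rho 0.22). Members were 794 bp wide at the median (quartiles 701.5 and 901.5), between the 839 bp of the 2 to 20 kb class and the 741 bp of the class over 100 kb away. Their GC content averaged 43.7% ± 4.82 (SD over sites), against 41.1% ± 5.55 in tiles of the same territory.

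**Figure D2:**
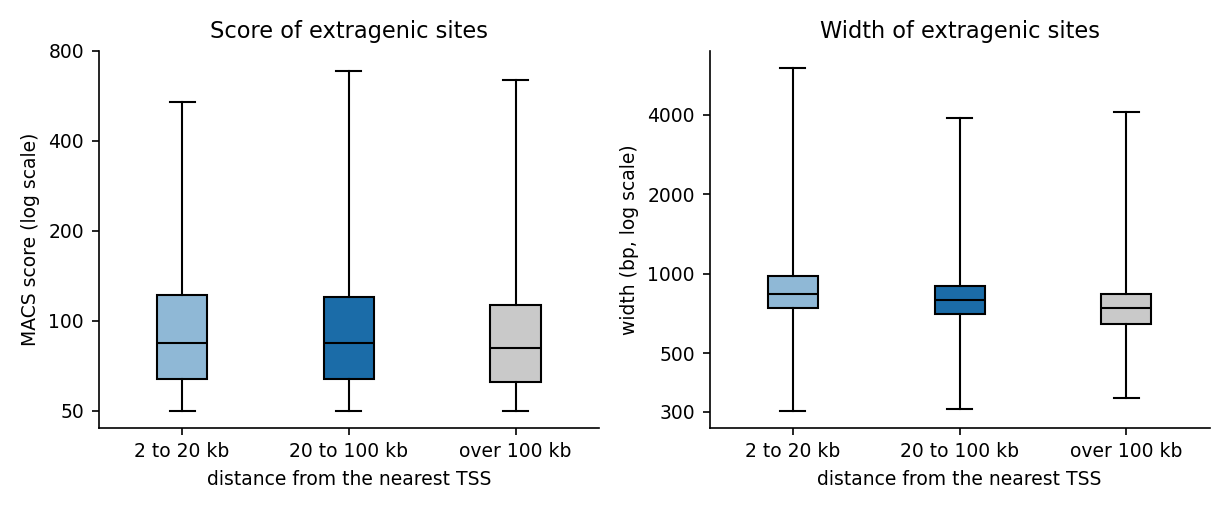
MACS scores (left) and widths in bp (right) of the 3 extragenic classes, both on log axes. Boxes span the quartiles, the line is the median and whiskers reach the lowest and highest site. Median scores were 84.6, 84.1 and 81.0 from the nearest to the farthest class, and median widths 839, 794 and 741 bp.

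The strongest member (chr2:39228458-39229226, score 685) held 3 motif matches and lay 22.1 kb from a pseudogene, Gm13506, and 147 kb from Ppp6c, which encodes a protein phosphatase subunit. The next (chr5:64461034-64461878, score 502) lay 22.7 kb upstream of Pgm1, which encodes phosphoglucomutase. The member at chr6:3397220-3397910 (score 428) lay 9.53 kb past the end of Hepacam2. The member at chr13:75934785-75935943 (score 408) lay between Ell2, an elongation factor gene, and Glrx, which encodes glutaredoxin, 25.6 kb and 42.0 kb from them. The member at chr1:95975318-95976385 (score 401) lay 26.7 kb upstream of Pdcd1, which encodes the immune checkpoint receptor PD-1. The member near Stard6 (score 420) lay 51.9 kb upstream of its TSS, and that near Pik3c3, a phosphatidylinositol 3-kinase gene, lay 17.7 kb beyond its 3′ end. The 3 widest members were weak: a 3897 bp site 35.0 kb from the TSS of Dclre1a scored 57.6, a 3451 bp site 43.3 kb from that of Mdm4 scored 70.4, and a 3277 bp site 77.2 kb from that of Sipa1l2 scored 50.4. At the limits of the class, the members just inside lay 20015 bp from the TSS of Pex5 (score 99.9), 20017 bp from that of Kcnk18 (187), 99939 bp from that of Tspan5 (76.8) and 99950 bp from that of Glt1d1 (53.0). Sites just outside had scores of 277 and 76.9 at 19974 and 19979 bp, and of 53.3 and 272 at 100019 and 100458 bp.

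Of the 1851 members, 1390 (75.1%, 95% Wilson interval 73.1 to 77.0%) held the CTCF core motif, allowing 1 mismatch. Windows of the same width 5 kb to either side held it in 325 of 3702 cases (8.78%), a difference of 66.3 points (64.1 to 68.4), and tiles of the territory held it in 5.24%. Over all Wapal sites the share was 74.5%. The share of members differed by -0.66 points from the 2 to 20 kb class (-3.35 to 2.02), by 3.23 points from the class over 100 kb away (-0.96 to 7.66) and by 0.79 points from all other sites (-1.49 to 2.99). All 3 intervals included 0. The share was also level inside the class, at 75.8% for members 20 to 40 kb and 40 to 60 kb from a TSS, 72.1% at 60 to 80 kb and 74.1% at 80 to 100 kb. An exact match was present in 546 members (29.5%), against 28.3% of all sites and 0.648% of flanking windows. With up to 2 mismatches the motif was in 96.1% of members, but also in 46.5% of flanking windows. For comparison, 67 of the 262 BirA regions on autosomes and X (25.6%) held it with at most 1 mismatch. By the rule no member shared a base with a BirA region, so some separation was fixed in advance. The smallest distance of a member from one was 993 bp, centre to centre, and 3 members were within 10 kb of one.

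The motif lay at the middle of the sites. Its best match was a median of 39 bp from the centre of the site, and 1141 of 1390 best matches (82.1%) were within 100 bp. Best matches in the flanking windows were a median of 203 bp from the window's centre, and 23.7% were within 100 bp. Most members with the motif had a single match (1220), while 151 had 2 and 19 had 3 or more. The match was on the forward strand in 698 members and on the reverse strand in 692 (50.2% forward, 47.6 to 52.8%). Stronger members held it more often. With members split at the quartiles of score, the share was 69.5% in the group of lowest scores, 74.1% and 74.9% in the middle groups and 81.9% in the group of highest scores. The highest group exceeded the lowest by 12.3 points (6.80 to 17.7), and exact matches rose from 24.4% to 34.1% (9.72 points, 3.86 to 15.5). Sites of the highest group were also wider (median 843 bp against 746 bp in the lowest), and whole sites were searched. The part of width in these differences was not tested.

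**Figure D3:**
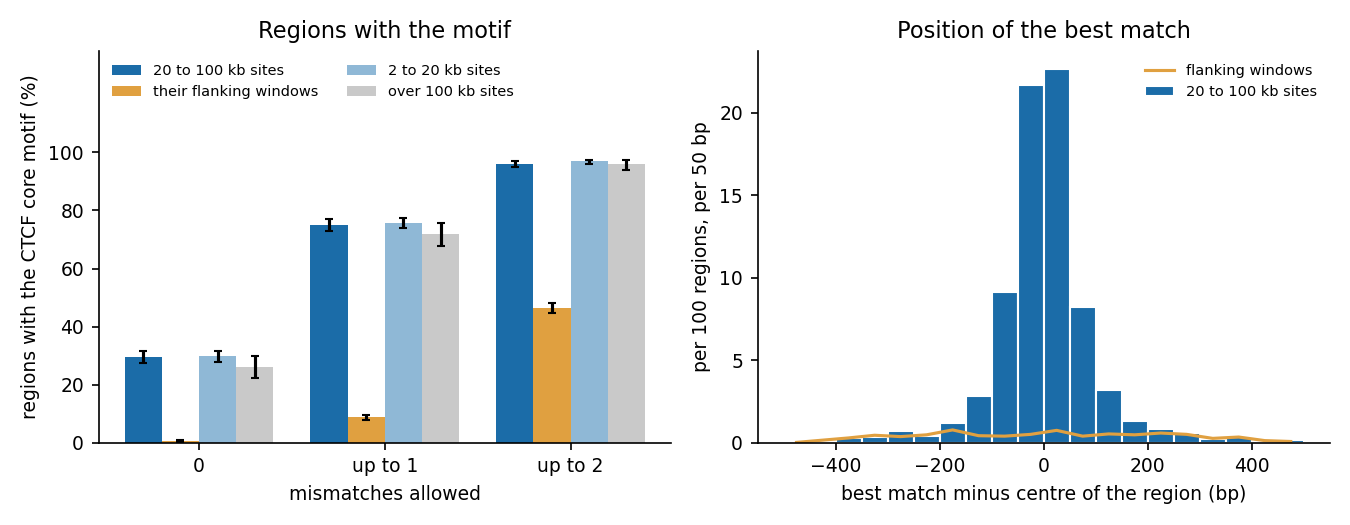
Left, the percentage of regions with the CTCF core motif at 0, up to 1 and up to 2 mismatches in members, their flanking windows 5 kb away and the other extragenic classes, with 95% Wilson intervals. Right, the distance in bp of the best match (at most 1 mismatch) from the centre of the region, per 100 regions and 50 bp. At 1 mismatch 75.1% of members and 8.78% of flanking windows held the motif, and the matches of members cluster at the centre.

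The 461 members without a match at 1 mismatch were called somewhat less strongly, with a median score of 78.4 against 86.4 for members with the motif. Of them, 142 (30.8%) reached a score of 100, against 38.7% of members with it, a difference of 7.90 points (2.86 to 12.7). Strong sites occurred among them as well. The highest was chr1:156853389-156854325 (score 349), followed by sites on chromosomes 6 (319) and 1 (302), and each of these 3 had a match with 2 mismatches. Only 72 members had no match at up to 2 mismatches, and their median score was 86.9. Members with and without the motif had a similar GC content (43.7% and 43.5%) and width (medians 796.5 and 788 bp).

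Motifs of other factors known from ESCs or enhancers were searched on both strands, and none differed between members and their flanking windows beyond counting error. They were the octamer bound by Oct4 (ATGCAAAT), the Esrrb motif (TCAAGGTCA), the AP-1 motif (TGANTCA), a Klf motif (CCACACCC), the GATA motif (AGATAA) and an E-box (CAGCTG). None of these spells part of another, and matches could overlap each other. The octamer was in 5.89% of members and 6.05% of flanking windows, the Esrrb motif in 2.43% and 1.89%, and the AP-1 motif in 24.0% and 23.0%. The Klf motif was in 5.62% and 6.21%, the GATA motif in 42.0% and 42.3%, and the E-box in 31.7% and 30.5%. All 6 intervals of the difference included 0, the widest departure being 1.22 points for the E-box (-1.35 to 3.82). Among the 461 members without the CTCF core motif the 6 intervals against their own flanks included 0 too, and the E-box came closest to the limit (33.0% against 28.6%, 4.34 points, -0.77 to 9.58).

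Few of the motifs in the territory lay in a site. Extragenic sequence 20 to 100 kb from a TSS held 2363 exact matches, and 558 of them (23.6%, 21.9 to 25.4%) were inside a Wapal site. This share differed by -0.25 points from that 2 to 20 kb from a TSS (-2.58 to 2.10), whereas it was 9.25 points above that of sequence over 100 kb away (14.4%, difference 6.36 to 11.97) and 7.83 points above that of genes and their surroundings within 2 kb (15.8%, difference 5.94 to 9.79). Only uniquely aligned reads had been kept, and matches outside sites lay more often in repeated sequence. The 20 bases around a match (at most 1 mismatch) occurred in 10 or more copies among the genome's matches for 5.25% of members with the motif and for 35.1% of matches outside sites in the same territory, a difference of -29.9 points (-31.0 to -28.5). When exact matches whose 20 bases occurred once were counted alone, 469 of 1835 (25.6%) lay in a site in the territory of the class, 26.6% at 2 to 20 kb, 15.2% over 100 kb away and 16.7% in and near genes. The class exceeded sequence over 100 kb away by 10.4 points on this count (7.07 to 13.5).

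Bases at the variable positions of an exact match and next to it also differed between members and matches outside sites. The best exact match of 546 members was set against 1805 exact matches in the same territory that were in no site, with position 1 the first base of the core and position 0 the base before it. At position 4, where the motif takes C or G, the base was C in 63.4% of members and 37.3% of the others. At position 9, where it takes G or T, the base was T in 54.9% and 42.4%. Directly after the core, at position 13, A or G filled most members (63.0% and 32.8%), against 47.9% and 18.3% outside sites, while T was there in 2.56% against 20.2% and C in 1.65% against 13.6%. Position 14 held G in 43.2% against 27.0%. Before the core, T was at position -2 in 49.8% against 34.5% and at position -4 in 38.5% against 22.6%. The copies described above differ between these groups as well, and their part in the base shares was not tested.

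Relative to genes, members taken as a whole lay more toward gene ends than their territory did. The nearest 3′ gene end was closer than the nearest TSS for 1102 members (59.5%, 57.3 to 61.7%), against 53.0% of tiles of the territory, a difference of 6.55 points (4.29 to 8.76). The share of sites was 49.0% at 2 to 20 kb and 64.4% over 100 kb away, so it rose with distance across the classes. Tiles of those other classes were not compared. A 3′ end lay within 5 kb for 110 members (5.94%) and 2.64% of tiles (difference 3.30 points, 2.31 to 4.48). Since members were denser near TSSs, the comparison was repeated by distance. Members 20 to 40 kb from a TSS were within 5 kb of a 3′ end in 8.24% of cases and tiles in 4.20% (difference 2.44 to 5.98 points), and at 40 to 60 kb the shares were 4.97% and 2.14% (1.19 to 5.20). At 60 to 80 kb (2.50% and 1.28%) and 80 to 100 kb (1.72% and 0.910%) the intervals of the difference included 0. The share nearer to a 3′ end than to a TSS exceeded that of tiles by 7.07 points at 20 to 40 kb (3.88 to 10.2). At 40 to 60 kb the excess was 8.94 points (4.44 to 13.2). It was 3.80 points at 60 to 80 kb (-2.05 to 9.45) and 4.66 at 80 to 100 kb (-2.77 to 11.7), where both intervals included 0. An example within 5 kb is the member 2.30 kb past the end of Kcnk18, a potassium channel gene, with a score of 187. The wide member 7.85 kb past the end of Mdm4, which encodes a regulator of p53, lay beyond that limit but nearer to a 3′ end than to a TSS.

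The nearest TSS belonged to a protein-coding gene for 1239 members (66.9%). For the others it was mostly that of a pseudogene (162), a snoRNA (113), an snRNA (94) or another noncoding transcript. Where it was coding, 697 members (56.3%, 53.5 to 59.0%) lay upstream of it. This was below the share of sites 2 to 20 kb away (66.9%, difference -10.7 points, -14.3 to -7.04) and above that of sites over 100 kb away (42.3%, difference 14.0 points, 7.66 to 20.1). The rule leaves out gene bodies, which lie downstream of a TSS, so it shapes the upstream share at each distance. The upstream share of tiles was not computed, so these differences cannot be assigned to the sites. The motif of a member ran toward the nearest TSS in 662 of 1390 cases (47.6%, 45.01 to 50.3%). A coding TSS lay within 100 kb of 1549 members (83.7%), and the median distance to one was 49.8 kb.

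The direction of neighbouring motifs changed with the distance between sites. Each site was paired with the next one on its chromosome, and 1730 pairs held at least 1 member and a motif with at most 1 mismatch in both sites. A pair was convergent when the motif of the left site was on the forward strand and that of the right site on the reverse strand, so that the motifs faced each other, and divergent when they faced away. Over all distances 25.5% of pairs were convergent (23.5 to 27.7%), 27.7% divergent and 46.8% on the same strand. At up to 50 kb, however, 24 of 331 pairs were convergent (7.25%, 4.92 to 10.6%) and 141 divergent (42.6%, 37.4 to 48.0%). At 50 to 200 kb the shares were 24.3% and 29.7%, and at 200 to 500 kb 34.1% and 21.8%. Beyond 500 kb 34.5% were convergent and 16.8% divergent. The convergent share was 27.0 points lower at up to 50 kb than over 200 kb (-31.1 to -22.4). Neighbouring pairs share a site, so they are not independent.

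The same order held when both sites were members (6.43% convergent at up to 50 kb and 38.6% over 200 kb, difference -32.2 points, -41.3 to -22.5) and when each site had a single match (8.02% and 34.6%). It also held for exact matches, with 1 of 44 pairs convergent at up to 50 kb and 38 of 128 over 200 kb. Pairs without a member showed the change too, from 13.2% to 32.8% (-19.6 points, -23.3 to -15.7), so it was not particular to the class. Over all distances the convergent share of pairs with a member minus that of pairs without was -1.49 points (-4.07 to 1.15). This interval spanned both signs. By distance, in steps chosen after seeing the data, the difference was -5.93 points at up to 50 kb (-9.53 to -1.88). It was -5.54 points at 50 to 200 kb (-9.75 to -1.16) and 1.49 points over 200 kb (-2.82 to 5.84). These intervals treat pairs as independent, which neighbouring pairs are not.

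**Figure D4:**
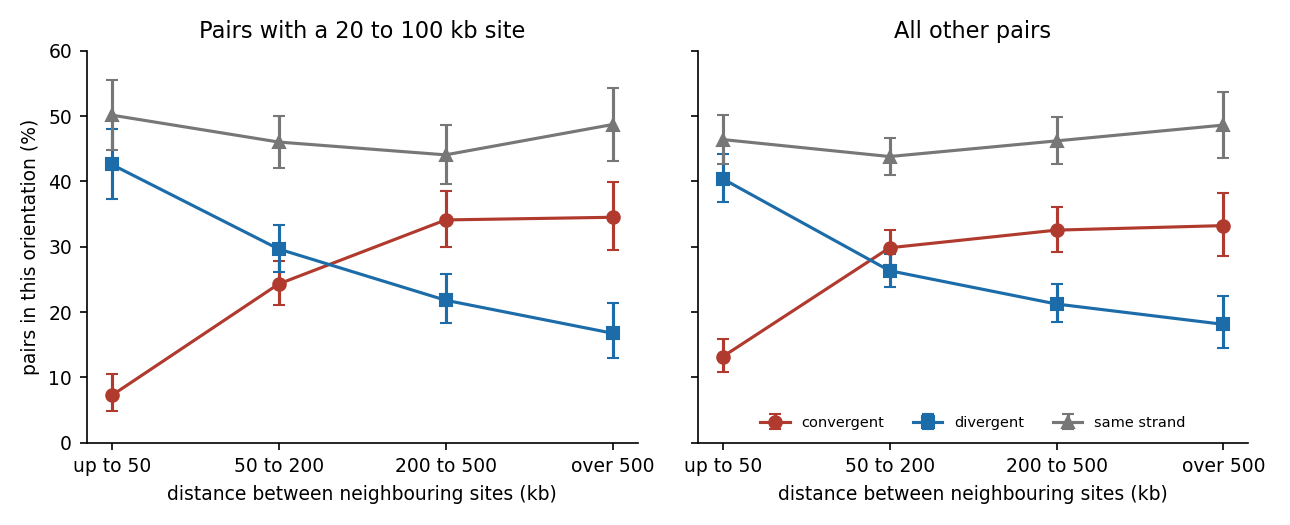
Percentage of neighbouring site pairs whose motifs converge, diverge or lie on the same strand, by the distance between the sites in kb, with 95% Wilson intervals. Left, 1730 pairs with at least 1 member; right, 2911 pairs with none. Convergent pairs with a member rose from 7.25% at up to 50 kb to 34.5% over 500 kb, and divergent pairs fell from 42.6% to 16.8%.

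The nearest other Wapal site was a median of 73.1 kb from a member, against 65.9 kb for the 2 to 20 kb class, 139.6 kb for the class over 100 kb away and 73.9 kb for sites in genes or within 2 kb of a TSS. Another site lay within 10 kb of 239 members (12.9%), against 14.0% of sites at 2 to 20 kb and 9.70% over 100 kb away. For sites in genes or within 2 kb of a TSS the share was 11.5%. The most isolated member was 2.44 Mb from the next site. The 1851 members lay in 1534 stretches between genes, of which 1262 held 1 member, 232 held 2 and 40 held 3 or more. Stretches with the highest number, 4, were found in 5 places. The one with the strongest member ran for 338 kb from Cacna1e, a calcium channel gene, to the lincRNA gene Gm9530 (chr1:156573050-156910652), and Ier5, an immediate early gene, was the next coding gene on that side. Its members scored 136, 349, 57.8 and 123, the motifs of 3 of them lay on the forward strand and the strongest had a match with 2 mismatches alone. By the flanking coding genes, further stretches with 4 members lay beside Cobl, between Pdk4 and Dync1i1, between Pax1 and Foxa2, and beside Mctp2.

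Each member was assigned to the protein-coding gene with the nearest TSS, whose body need not be the nearest. By this count, used for the gene lists as well, 1510 of 22208 genes (6.80%) had at least 1 member, and 281 of these had 2 or more. Foxa2, which encodes a transcription factor of endoderm, had 6, the highest number. They scored 134, 99.8, 89.2, 86.2, 61.7 and 52.5, and lay 63.4 to 256 kb from its TSS. Of the pluripotency genes, 5 of 18 were the nearest coding gene of a member (27.8%, against 6.80% of all genes). Genes with wide surroundings collect more members by this count, and the size of the surroundings was not matched. The strongest lay 132 kb from the TSS of Tcfcp2l1, a transcription factor gene of naive pluripotency (chr1:120655855-120656773, score 205, exact motif), and a weaker one lay 144 kb from it (62.3). Nr5a2, which encodes a nuclear receptor, had members of 139 and 58.2 at 158 and 374 kb. Nanog had a member 37.4 kb away (chr6:122619178-122620945, score 104), and Tbx3 had one 32.3 kb away (77.8). A member lay 107 kb from the TSS of Sox2 (chr3:34654849-34657456, score 87.8) and had no motif at 1 mismatch. Sox2 is known to be driven in mouse ESCs by a distal enhancer cluster, and whether the member lies in it was not examined.

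Of the developmental transcription factor genes, 6 of 32 were nearest to a member (18.8%). The share over all protein-coding genes, 6.80%, is the background for this and the following lists. Besides Foxa2 they included Pax3 (score 88.3, 218 kb), T (59.2, 28.9 kb) and Sox11 (51.6, 257 kb). Of the signalling ligands and antagonists 3 of 18 (16.7%) were nearest to a member: Inhba (70.04), the BMP antagonist gene Nog (65.1) and Bmp2 (60.2 and 55.2). Of the genes for cohesin, its regulators and Ctcf 1 of 17 was (5.88%), namely Ctcfl, a germline paralogue of Ctcf, with an exact motif 29.8 kb from its TSS (score 119). Of 11 loci tested at single sites in the study 3 (27.3%, 95% Wilson interval 9.75 to 56.6%) were nearest to a member, Nanog, Fos (55.6, 33.5 kb) and Sox11. These members are not the sites assayed there. The distal c-Fos element of the study lay nearer to the gene than this member, and the Nanog promoter was a negative control for H3K27me3. These lists are short and overlap, as for Nanog and Sox11, and the size of the surroundings was not matched for any of them. The 95% Wilson intervals of their shares were wide (12.5 to 50.9% for the pluripotency genes and 8.89 to 35.3% for the developmental factors). Those of the signalling list (5.84 to 39.2%) and the cohesin list (1.05 to 27.0%) included the background share.

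Members were rare on the X chromosome, as were sites of the other classes. Its 53.2 Mb of territory held 45 members, 0.847 per Mb (0.617 to 1.13), while the 19 autosomes ranged from 2.21 per Mb on chromosome 4 (1.74 to 2.77) to 5.38 on chromosome 19 (4.10 to 6.94) and held 3.49 per Mb together. Chromosome 8 was close to the highest at 5.24 (4.41 to 6.18), and chromosome 1 had the most members (187). The interval of X overlapped that of no autosome. Exact motifs were also sparser on X, with 2.67 per Mb of territory against 2.92 to 5.94 on autosomes. Of the exact motifs in the territory, 13 of 142 on X lay in a site (9.15%) against 24.5% on autosomes (difference -15.4 points, -19.5 to -9.25). With single-copy matches alone the shares were 14.9% (11 of 74) and 26.0% (-11.1 points, -17.8 to -1.12). The number of X chromosomes in these cells was not given in the sources used here, and its part in these values was not tested. Single-copy exact matches also lay in a site less often on X 2 to 20 kb from a TSS (11.1% against 27.2% on autosomes) and in and near genes (9.42% against 16.9%). Over 100 kb away X held only 9 such matches, with 0 in a site. The interval there, 0 to 29.9%, included the 15.3% of autosomes. Over all classes X held 159 of the 8323 sites, and 28.3% of these were members, against 22.2% of sites on all chromosomes.

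**Figure D5:**
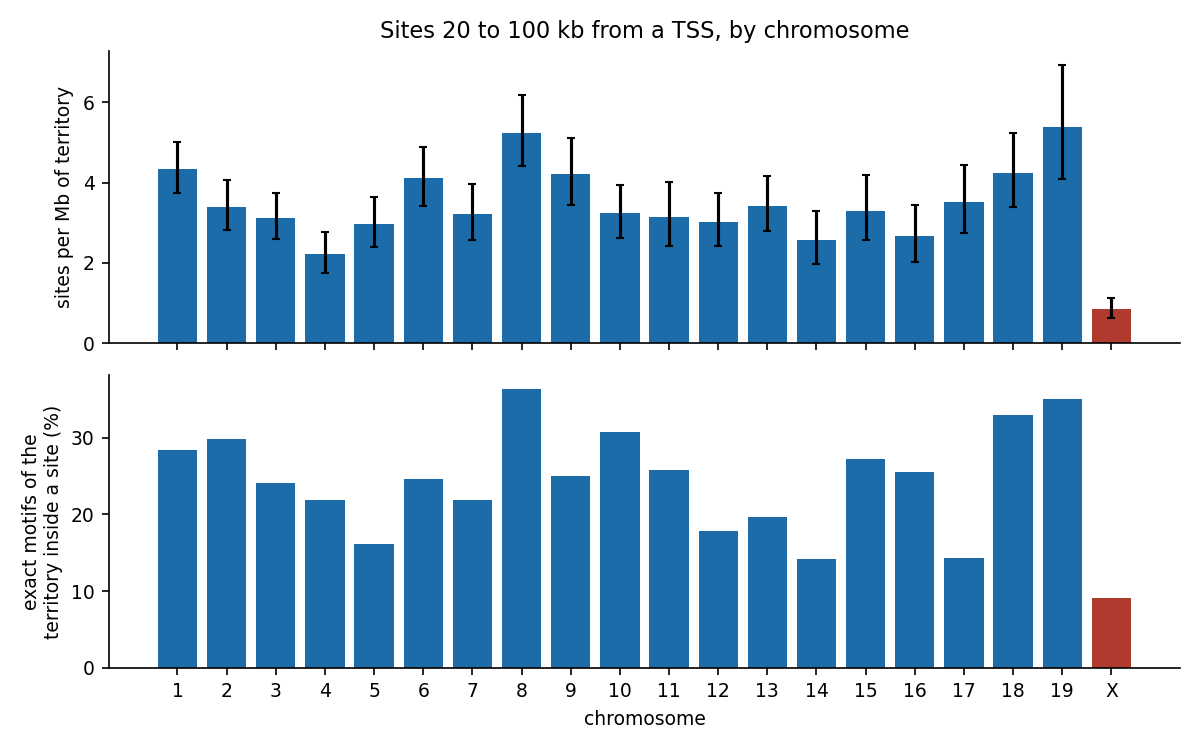
Members per Mb of their territory with 95% Poisson intervals (top) and the percentage of exact CTCF core motifs of that territory that lay inside a Wapal site (bottom), for each autosome in blue and X in red. X had 0.847 members per Mb against 2.21 to 5.38 on autosomes, and 9.15% of its exact motifs lay in a site against 14.1 to 36.3%.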

How the data were processed

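Reads were mapped by the authors with Bowtie to mm9, keeping unique alignments, and enriched regions were found with MACS 1.4.2 relative to input. They deposited a joint list of the FB Wapal clones and a BirA list. The rule that joined the clones is not given in the sources used here. The deposited score, −log10 of the p-value times 10, is not normalized between lists and was used within the FB Wapal list alone. Read depth is not held in the lists.

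Sites were placed by their centre against GENCODE release M1 genes on mm9 (NCBIM37). The CTCF core motif was searched on both strands, with at most 1 mismatch. Flanking windows lay 5 kb to either side, and tiles of 794 bp free of sites covered the same territory. Shares have 95% Wilson intervals, differences of shares Newcombe intervals and densities exact Poisson intervals. No p-value was computed. Gene list members were matched by symbol or RefSeq synonym, and Sox1 was not matched. Some members of the lists are not reported here by name. Members named are the 10 of highest score, the 3 widest, those beside each limit and, per gene list, the strongest. Any other feature was picked with its value known. The reference is not masked for repeats, so copies of the 20 bases around a match were counted instead, an alternative chosen after seeing the data, as were the distance steps for pairs. The class and the gene lists were chosen with earlier results of these data known. Functions were tested on simulated data. Python 3.11.15, numpy 2.4.6, scipy 1.17.1, pandas 2.3.3 and matplotlib 3.10.9 were used.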

Additional observations from a re-analysis of the deposited data

How the results depend on the processing

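Of 49 alternatives, 31 left a count within 1.5 times, a value within its 95% interval, or a difference with its direction and its side of 0. A score of at least 100 left 680 members, 1.19 per Mb, with a median score of 136, a median width of 826.5 bp and the motif in 79.1%. Protein-coding genes alone gave 1977 members with a median width of 806 bp. They gave 4.22 members per Mb (4.04 to 4.41), above the 3.26 sites per Mb of the genome as a whole, so the closeness of these densities depends on the annotation. They also moved the share nearer to a 3′ end to 53.8%, against 48.0% of tiles chosen in the same way (difference 5.80 points, with an interval up to 7.99 that excluded 0), although at 60 to 80 kb and 80 to 100 kb the difference was -1.79 points (-7.25 to 3.72) and -0.89 points (-7.67 to 5.94). With them the motif share exceeded that of the class over 100 kb away by 4.02 points (0.649 to 7.48), and its difference from the 2 to 20 kb class changed sign to 0.52 points (-2.19 to 3.25). Autosomes alone gave 3.49 members per Mb. The motif was in 29.5% of members with 0 mismatches, in 96.1% with 2 and in 71.4% when only 250 bp on either side of the centre were searched. That window turned the difference from the 2 to 20 kb class to 1.36 points (-1.48 to 4.18), and 2 mismatches turned the difference from all other sites to -0.49 points (-1.56 to 0.43). Before and after these 3 changes of sign the intervals included 0. Convergent pairs made up 21.1% of pairs with exact matches and 22.4% of pairs of 2 members, the latter chosen after seeing the data. The cause of these shifts was not tested. The rule for removing BirA regions left 1850 to 1866 members.

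The clones could not be left out in turn, since the list joins them. No paired analysis was possible because each group had 1 list. Depth and enrichment of single sites are unknown, so a motif outside the sites shows only that no region was called there.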
